A study of Mus musculus with 12 samples.

Results

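The miR-23, miR-27 and miR-24 miRNAs were followed in microglial exosomes of the mouse brain after repetitive mild traumatic brain injury (rmTBI). The 6 members were miR-23a-3p, miR-23b-3p, miR-27a-3p, miR-27b-3p, miR-24-3p and miR-24-2-5p. They were chosen by name, as mature products of the Mir23a/Mir27a/Mir24-2 and Mir23b/Mir27b/Mir24-1 clusters, and matched exactly to the miRNA names in the scanner files. They are 6 of the 1881 mouse miRNAs on the arrays, and 5 of them were among the 486 miRNAs tested. The untested member was miR-24-2-5p, which was at background on nearly all arrays.

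Exosomes came from male C57BL/6 mice, 12 weeks old per the methods, for which no mutant allele or drug is named. The sham group had the same handling and anesthesia without impact (3 arrays). The rmTBI mice received 4 closed-head impacts at 48-h intervals, and their exosomes were collected at 3, 14, and 42 days post-injury (DPI), the acute, sub-acute, and chronic phases (3 arrays each). The comparisons ask how the miRNA content of these exosomes differs from sham at each phase and between the phases. The time at which sham mice were killed and the number of mice behind an array are not given in the sources used here, so p-values measure the spread between these samples only. Exosomes were released from papain-digested tissue and captured with an antibody to CD11b, a surface protein that microglia share with other myeloid cells. In such bulk material, more exosomes from one source and more of a miRNA per exosome cannot be told apart.

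Each cluster is transcribed as 1 primary transcript that is cut into a miR-23, a miR-27, and a miR-24 hairpin, and the Mir23b cluster lies within the protein-coding gene Aopep. miR-23 is known for repressing glutaminase, miR-27 for restraining fat cell differentiation through PPARγ, and miR-24 for repressing the pro-apoptotic gene Bim (Bcl2l11) and cell cycle genes. All of them are found in many tissues, including vascular endothelium, and are not particular to microglia.

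The mature sequences are shown because some members, such as miR-27a-3p and miR-27b-3p, differ by few bases, which bears on what each probe can separate. They are from RefSeq (GRCm38.p6), which held 5 of the 6 members, written 5′ to 3′ with the seed (bases 2 to 8), the main determinant of target choice, in capitals.
mmu-miR-23a-3p: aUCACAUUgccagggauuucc
mmu-miR-27a-3p: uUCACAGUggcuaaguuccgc
mmu-miR-27b-3p: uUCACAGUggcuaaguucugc
mmu-miR-24-3p: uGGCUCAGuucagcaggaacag
mmu-miR-24-2-5p: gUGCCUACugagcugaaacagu
mmu-miR-24-1-5p: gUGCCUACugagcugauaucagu
miR-27a-3p and miR-27b-3p share 20 of 21 bases and the whole seed, and their difference is C19U, counted from the 5′ end of miR-27a-3p. miR-24-3p has the same 22 bases from both clusters, so its signal cannot be divided between them. The 5p arms of Mir24-1 and Mir24-2 share their seed with each other and not with miR-24-3p. Because of the likeness of the 2 miR-27 members, a probe for miR-27a-3p may also bind miR-27b-3p, and the reverse. RefSeq held no sequence of miR-23b-3p, so whether probes can separate it from miR-23a-3p was not examined.

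The clusters lie on separate chromosomes. On the plus strand of chromosome 8, the hairpins Mir23a, Mir27a, and Mir24-2 span 404 bases, with miR-23a-3p at chr8:84208563-84208583, miR-27a-3p at chr8:84208727-84208747, miR-24-2-5p at chr8:84208839-84208860, and miR-24-3p at chr8:84208875-84208896. On the plus strand of chromosome 13, Mir23b, Mir27b, and Mir24-1 span 792 bases, with miR-27b-3p at chr13:63300760-63300780, miR-24-1-5p at chr13:63301213-63301235, and the other copy of miR-24-3p at chr13:63301251-63301272.

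The arrays differed greatly in brightness, and brightness followed the groups. The 75th percentile of the signal, by which each array was divided, ran from 217.0 to 348.0 intensity units in sham and from 1384.7 to 2936.1 at 42 DPI, and the number of miRNAs detected from 243 to 285 and from 490 to 579. The 3 sham arrays and 1 array of 3 DPI were on 1 slide, and the other 8 arrays on the other slide, so slide and injury cannot be told apart for 14 and 42 DPI against sham. Of the microglia and myeloid list (6 miRNAs), 4 were detected on no sham array (miR-142a-3p, miR-142a-5p, miR-146a-5p, and miR-155-5p) and 1 on all of them. At 3 DPI, 3 were detected on no array (miR-142a-3p, miR-142a-5p, and miR-155-5p) and 2 on all. All 6 of 6 neuron miRNAs were detected on every array. Groups were compared with limma on the log2 scale of the divided signal, called here the log2 scaled signal, with Benjamini-Hochberg adjustment over the 486 miRNAs, and a miRNA was called at an adjusted p under 0.05. Levels are given for 1 miRNA at a time, since probes of different miRNAs differ in brightness for technical reasons.

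miR-23a-3p, a member of the chromosome 8 cluster, rose at 42 DPI. Its log2 scaled signal was -1.34, -0.98, and -0.93 on the sham arrays, -0.73, -0.65, and -1.14 at 3 DPI, -0.85, -0.01, and -0.07 at 14 DPI, and 0.07, -0.07, and -0.11 at 42 DPI. All 3 arrays of 42 DPI and all 3 of 14 DPI were above every sham array, and 3 DPI overlapped sham. The change against sham at 42 DPI was 1.04 ± 0.23 on the log2 scale (SE, limma, n = 3 arrays a group, adjusted p = 0.0125), a 2.06-fold higher signal.

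miR-23b-3p, its counterpart in the chromosome 13 cluster, ran alongside. Its log2 scaled signal was -0.54, -0.16, and -0.18 in sham, 0.00, -0.03, and -0.42 at 3 DPI, -0.22, 0.48, and 0.53 at 14 DPI, and 0.58, 0.48, and 0.48 at 42 DPI. The arrays of 42 DPI stood above all sham arrays, while 1 array of 14 DPI fell among them. Its change at 42 DPI was 0.81 ± 0.21 (SE, limma, adjusted p = 0.0196), or 1.75-fold.

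miR-27a-3p, cut from the same transcript as miR-23a, was level with sham at 3 DPI and rose at 42 DPI. Its log2 scaled signal was -1.50, -1.06, and -0.91 in sham, -1.04, -1.04, and -1.31 at 3 DPI, -1.01, -0.49, and -0.29 at 14 DPI, and -0.32, -0.28, and -0.31 at 42 DPI. The 3 arrays of 42 DPI were all above sham and close together (SD 0.02, against 0.30 in sham). The change at 42 DPI was 0.85 ± 0.20 (SE, limma, adjusted p = 0.0148), or 1.81-fold.

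miR-27b-3p, its near-identical counterpart on chromosome 13, had a log2 scaled signal of -2.35, -1.94, and -1.75 in sham, -1.87, -1.70, and -1.96 at 3 DPI, -1.75, -1.14, and -0.82 at 14 DPI, and -0.97, -1.02, and -1.0 at 42 DPI. The highest sham array met the lowest array of 14 DPI, and all arrays of 42 DPI were clear of sham. Its change at 42 DPI was 1.02 ± 0.23 (SE, limma, adjusted p = 0.0128), or 2.03-fold.

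miR-24-3p, the product that both clusters share, did not pass the test in any comparison. Its log2 scaled signal was 1.27, 1.65, and 1.65 in sham, 1.53, 1.57, and 1.25 at 3 DPI, 0.90, 1.64, and 1.81 at 14 DPI, and 1.82, 1.73, and 1.68 at 42 DPI. The arrays of 42 DPI were all above those of sham, but by 0.22 ± 0.22 in the mean (SE, limma, adjusted p = 0.476), with a 95% interval from -0.29 to 0.72. That interval includes 0 and also the changes of 0.40 to 0.52 that bound those of miR-23a-3p, miR-27a-3p, and miR-27b-3p from below.

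**Figure D1:**
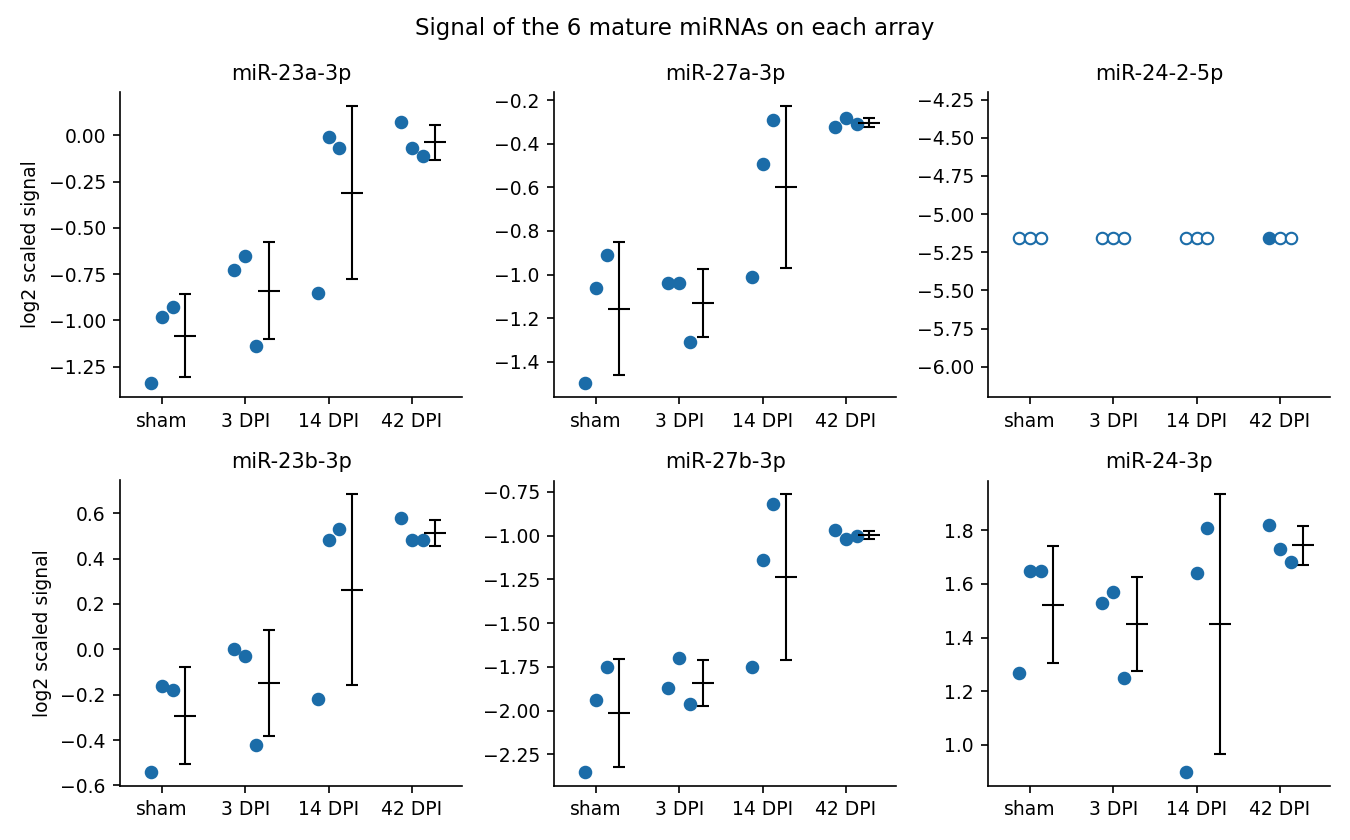
Log2 scaled signal (vertical axes, which differ between panels) of the 6 members in sham and at 3, 14, and 42 DPI. Each point is 1 array (n = 3 a group), open where the miRNA was not detected, and bars give the mean ± SD. The 4 miR-23 and miR-27 members sit above sham on all arrays of 42 DPI, and miR-24-2-5p lies at the floor of -5.16 on every array.

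At 42 DPI, 4 of the 5 tested members were called higher than sham, against 67 of 486 miRNAs (13.8%), and none was called lower, against 101 miRNAs. All 5 members had every array of 42 DPI above every sham array, as did 153 of 486 miRNAs (31.5%). The median log2 change was 0.85 over the members and -0.09 over all miRNAs tested. The split over all miRNAs moved with the scaling, to 158 higher and 73 lower with the 75th percentile over all miRNAs (median change 0.50), 105 and 72 with quantile normalization (0.06), and 409 and 0 with no scaling (1.94). Under each of these scalings the 4 miR-23 and miR-27 members stayed above the median. By size of change, miR-23a-3p ranked 23, miR-27b-3p 27, miR-27a-3p 44, miR-23b-3p 53, and miR-24-3p 159 among the 486, counted from the largest rise.

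These calls rested on few arrays. Without sham replicate 1, the lowest sham array for each tested member, 0 of 5 members were called, although the changes of the miR-23 and miR-27 members stayed between 0.68 and 0.92 (limma, adjusted p from 0.0519 to 0.0775). Over all miRNAs tested, calls fell there too, from 67 higher and 101 lower to 14 and 48. The call of miR-23b-3p was also lost without any 1 of the 3 arrays of 42 DPI (adjusted p from 0.0515 to 0.0676). Calls over all miRNAs, higher and lower together, were 72, 103, and 78 without 42 DPI replicates 1, 2, and 3. With the slide as a term in the fit, the changes of these 4 members were 0.98 to 1.21 and none was called (adjusted p from 0.199 to 0.24). Over all miRNAs tested, 0 were called in that fit, which ties the slides together through 1 array of 3 DPI.

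**Figure D2:**
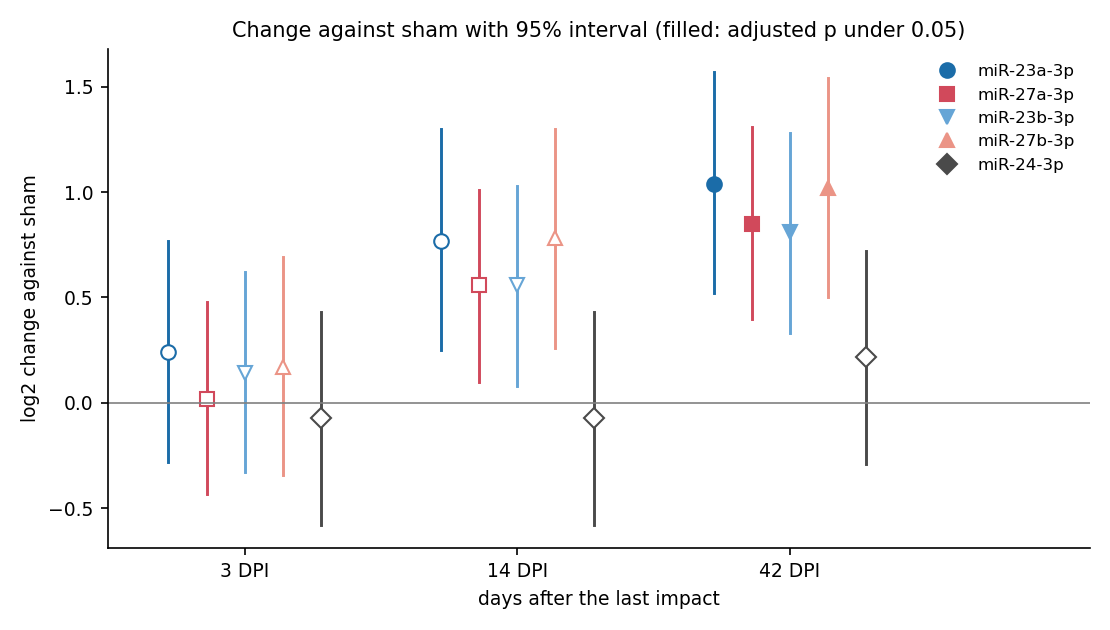
Log2 change against sham (vertical axis) at 3, 14, and 42 DPI for the 5 tested members, with 95% intervals from limma over 12 arrays. Filled symbols have an adjusted p under 0.05, which holds for the 4 miR-23 and miR-27 members at 42 DPI and for no member earlier.

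At 14 DPI, limma called 0 of the 5 members, against 18 of 486 miRNAs (3.70%). The changes against sham were 0.77 ± 0.23 for miR-23a-3p, 0.56 ± 0.21 for miR-23b-3p, 0.56 ± 0.20 for miR-27a-3p, and 0.78 ± 0.23 for miR-27b-3p (SE, limma, adjusted p from 0.101 to 0.16). An unadjusted p under 0.05 was reached by 4 of the 5 members and by 103 of 486 miRNAs (21.2%). The methods' t-test called 0 members at 14 DPI, with or without adjustment, and 0 of 486 miRNAs after adjustment. Only miR-23a-3p, among the members, had all arrays above sham, as did 25 of 486 miRNAs (5.14%). The change of miR-24-3p was -0.07 ± 0.22 (SE, adjusted p = 0.923).

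The 14-DPI result turned on 1 array. Replicate 1 of 14 DPI had the lowest signal of its group for each of the 5 members. Without it, limma called the 4 miR-23 and miR-27 members at 14 DPI, with changes from 0.76 to 1.04 (adjusted p from 0.00705 to 0.0157). It left miR-24-3p uncalled at 0.20 (limma, adjusted p = 0.297). Calls over all miRNAs tested rose too without that array, from 18 to 165, with 87 higher and 78 lower. Sham and 14-DPI arrays with the same replicate number deviated together, and replicate 1 was low in both. With the replicate number as a block, 0 members were called at 14 DPI (adjusted p from 0.105 to 0.201 for the miR-23 and miR-27 members).

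At 3 DPI, limma called 0 of the 5 members and 0 of 486 miRNAs (0%), with 11 miRNAs and 0 members at an unadjusted p under 0.05, and the methods' t-test called 0 after adjustment. The changes ran from -0.07 (95% interval -0.58 to 0.43) for miR-24-3p to 0.24 (-0.28 to 0.77) for miR-23a-3p, so a rise of the size seen at 42 DPI lies outside the interval for each of the 4 miR-23 and miR-27 members. Their arrays of 3 DPI and sham overlapped.

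Between the time points, the same 4 members were higher at 42 than at 3 DPI. The changes were 0.80 ± 0.23 for miR-23a-3p (SE, limma, adjusted p = 0.0319), 0.66 ± 0.21 for miR-23b-3p (0.0364), 0.83 ± 0.20 for miR-27a-3p (0.0217), and 0.84 ± 0.23 for miR-27b-3p (0.0286), against 69 of 486 miRNAs called higher (14.2%). miR-24-3p changed by 0.29 ± 0.22 (adjusted p = 0.3). Within the slide that holds all arrays of 42 DPI and 2 of 3 DPI, the changes of the 4 members were 0.74 to 0.87 and 0 were called (limma, adjusted p from 0.0614 to 0.0952). Over all miRNAs, 2 of 486 were called higher there and 41 lower. Without 3 DPI replicate 1 only miR-27a-3p was called, and without 3 DPI replicate 3 or without any 1 array of 42 DPI none was. Calls over the 486 miRNAs fell too, to 94 and 48 without 3 DPI replicates 1 and 3. They fell to 0, 49, and 0 without 42 DPI replicates 1, 2, and 3.

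The remaining steps were not separated by the test. From 3 to 14 DPI the miR-23 and miR-27 members moved by 0.41 to 0.60 (limma, adjusted p from 0.202 to 0.309). In that step 0 of 5 members were called, against 3 of 486 miRNAs (0.617%). At an unadjusted p under 0.05 were 3 members and 101 of 486 miRNAs (20.8%), and 0 members by the methods' t-test. Without 14 DPI replicate 1 all 4 were called, as were 134 of 486 miRNAs, 76 higher and 58 lower. From 14 to 42 DPI all 5 members moved by 0.24 to 0.30 (adjusted p from 0.526 to 0.576), and limma called 0 members and 0 of 486 miRNAs (0%), with 0 members and 54 miRNAs at an unadjusted p under 0.05 and 0 by the methods' t-test. The order of levels was thus sham, 3 DPI, 14 DPI, and 42 DPI for the means of the 4 members, in which no neighbors passed the test. The means of miR-24-3p were 1.45 at 3 and 14 DPI, 1.52 in sham, and 1.74 at 42 DPI.

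The contrast between miR-24-3p and its cluster mates was examined as the ratio of 2 miRNAs on the same array, which a scaling by 1 factor per array leaves as it is. Quantile normalization is no such factor, and under it the changes at 42 DPI were 1.45 for miR-27b-3p and 0.24 for miR-24-3p. The log2 ratio of miR-23a-3p over miR-24-3p was -2.61 ± 0.03 in sham (SD, n = 3), -2.29 ± 0.09 at 3 DPI, -1.76 ± 0.11 at 14 DPI, and -1.78 ± 0.02 at 42 DPI. The spread between arrays was far smaller than in the levels, and 14 DPI replicate 1 no longer stood apart. At 14 DPI the ratio had shifted by 0.85 and at 42 DPI by 0.83, with all arrays above sham.

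The other 3 members shifted alike against miR-24-3p. For miR-27b-3p the log2 ratio was -3.54 ± 0.12 in sham, -3.29 ± 0.10 at 3 DPI, -2.69 ± 0.08 at 14 DPI, and -2.74 ± 0.06 at 42 DPI. The shift from sham to 42 DPI was 0.80 for miR-27b-3p, 0.63 for miR-27a-3p, and 0.59 for miR-23b-3p, and at 14 DPI 0.85, 0.63, and 0.63. All arrays were above sham for 4 of 4 members at 14 and at 42 DPI. So they were for 75 of 229 miRNAs (32.8%) at 14 DPI and 78 of 229 (34.1%) at 42 DPI. The 229 are the miRNAs detected on all arrays without miR-24-3p, and include these 4 members. At 3 DPI this held for 3 of 4 members, with shifts of 0.22 to 0.32, and for 22 of 229 miRNAs (9.61%). The exact two-sided permutation test gave p = 0.1 for each of these, the smallest value that 3 against 3 arrays allow, and an adjusted p of 0.11 over the 32 ratio tests run, so none could pass. Against miR-24-3p the median miRNA shifted by -0.01 at 14 DPI and -0.28 at 42 DPI.

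**Figure D3:**
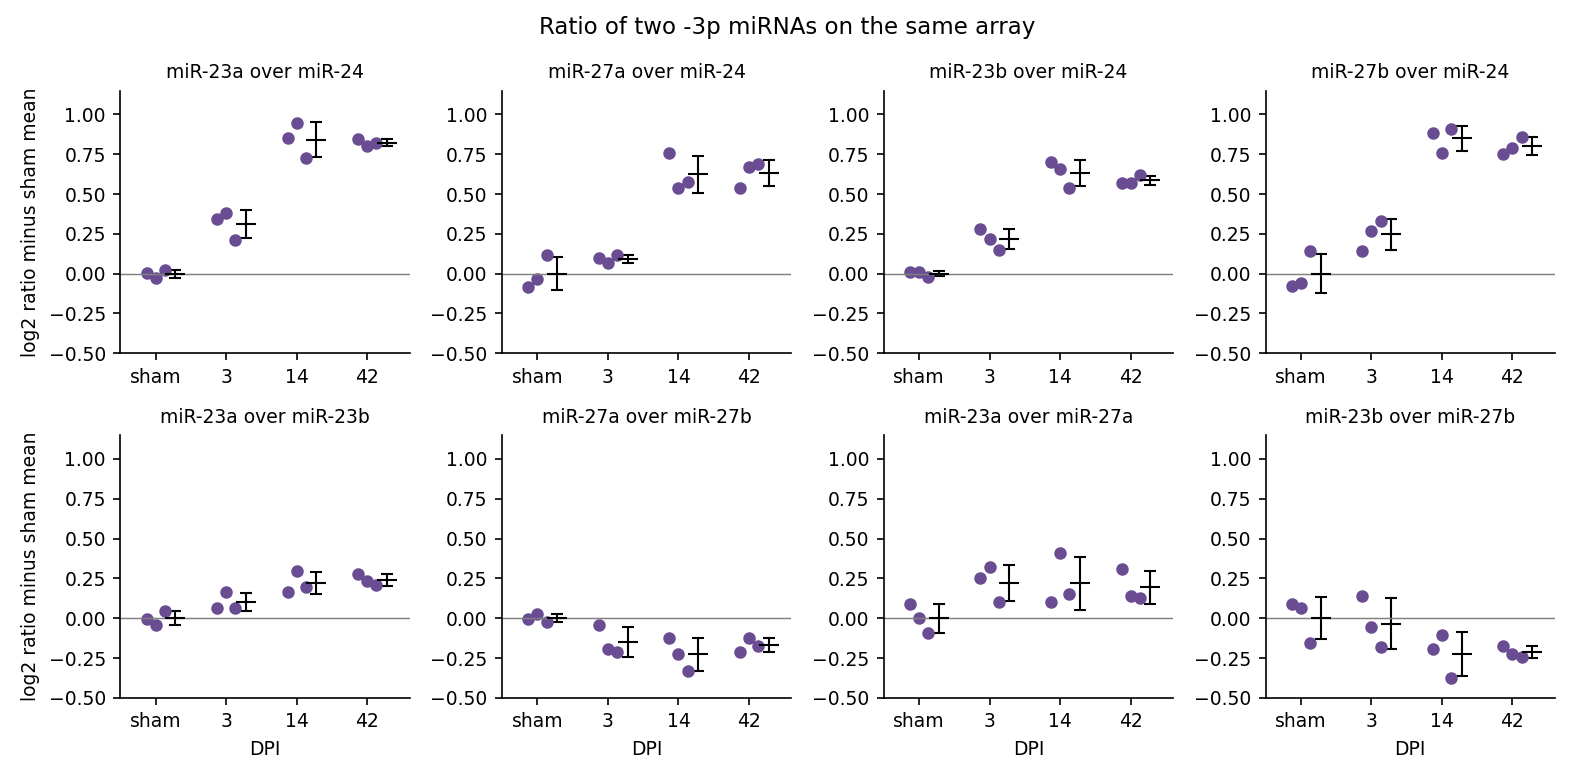
Log2 ratio of 2 miRNAs on the same array minus the sham mean (vertical axis) in sham and at 3, 14, and 42 DPI. Points are arrays and bars the mean ± SD (n = 3). In the upper row the 4 miR-23 and miR-27 members rise against miR-24-3p to between 0.59 and 0.85 at 14 and 42 DPI, and in the lower row ratios among the 4 members stay within 0.24 of sham in the mean.

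Ratios among the 4 members moved little. At 42 DPI the log2 ratio of miR-23a-3p over miR-23b-3p had shifted by 0.24, of miR-23a-3p over miR-27a-3p by 0.19, of miR-27a-3p over miR-27b-3p by -0.17, and of miR-23b-3p over miR-27b-3p by -0.21. These shifts are at most 1.18-fold, with all 3 arrays on 1 side of sham in each (exact permutation p = 0.1, adjusted p = 0.11). With normexp and its offset of 50, described next, 3 of these 4 shifts turned, to -0.05 for miR-23a-3p over miR-23b-3p, 0.26 for miR-27a-3p over miR-27b-3p, and 0.52 for miR-23b-3p over miR-27b-3p.

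The difference from miR-24-3p depended on the background correction. With normexp and its offset of 50 in place of the scanner software's correction, the change at 42 DPI was 0.67 for miR-23a-3p, 0.72 for miR-23b-3p, 0.46 for miR-27a-3p, 0.20 for miR-27b-3p (adjusted p = 0.317), and 0.50 for miR-24-3p (adjusted p = 0.0638). The ratio of miR-27b-3p over miR-24-3p then shifted by -0.31 and that of miR-27a-3p by -0.05. With normexp and an offset of 0, which was added once the data had been seen, the same 2 ratios shifted by 0.52 and 0.50. The 4 miR-23 and miR-27 members were then called at 42 DPI, while miR-24-3p was not (limma, adjusted p = 0.356). Over all miRNAs tested, 346 were called with that offset, 38 higher and 308 lower, and the median change was -1.04. Summed over its probes, the unscaled signal of miR-27b-3p was 55.7, 56.4, and 103.5 intensity units on the sham arrays. That of miR-24-3p was 686.3, 681.4, and 1095.8. The offset of 50 is added at each spot, and so enters such a sum once for every probe.

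**Figure D4:**
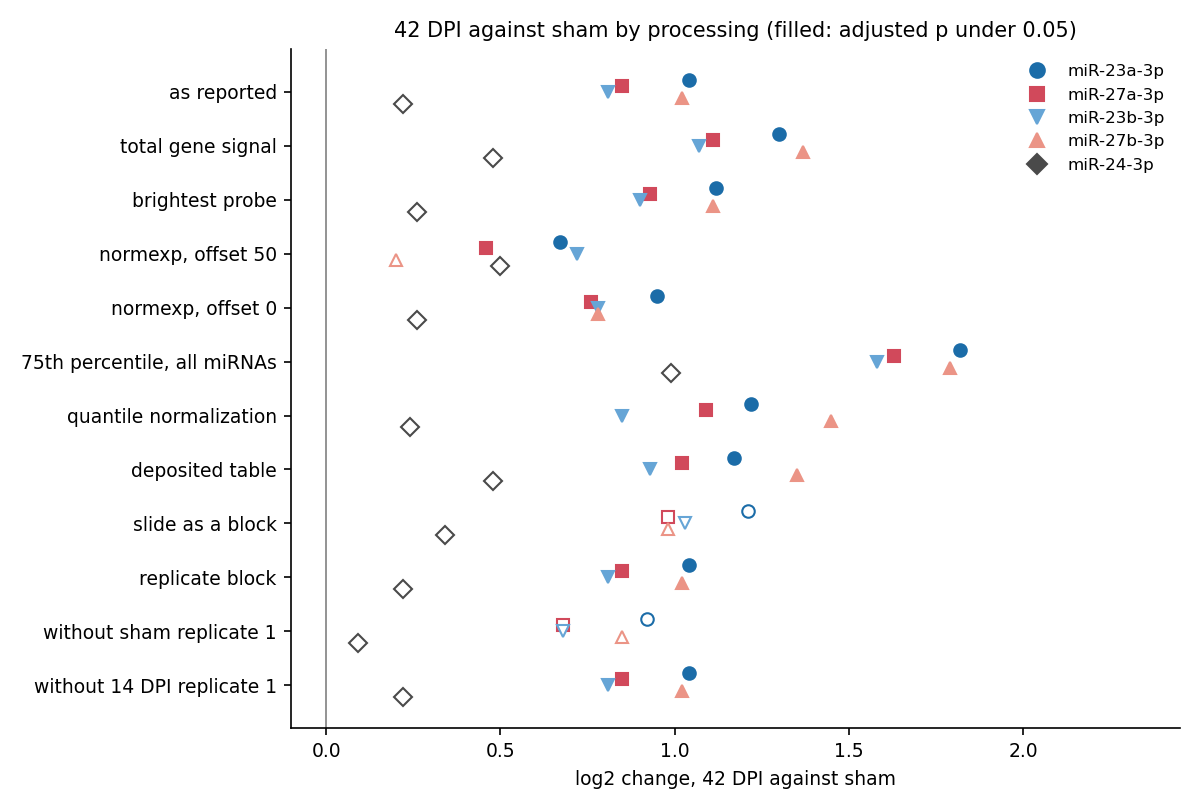
Log2 change at 42 DPI against sham (horizontal axis) of the 5 tested members under 12 ways of processing (rows), filled where the adjusted p was under 0.05. The 4 miR-23 and miR-27 members lie to the right of miR-24-3p except under normexp with an offset of 50, where miR-27b-3p at 0.20 and miR-27a-3p at 0.46 lie below its 0.50.

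The size of the rise also depended on how arrays were put on 1 scale. Before scaling, miR-23a-3p measured 112.8, 109.7, and 183.1 intensity units in sham and 3071.4, 1319.5, and 1723.0 at 42 DPI, and miR-24-3p rose from the values above to 10392.2, 4590.2, and 5936.2. Without scaling between arrays the changes at 42 DPI were 3.63 to 3.86 for the 4 miR-23 and miR-27 members and 3.04 for miR-24-3p, and all 5 were called. With the 75th percentile taken over all miRNAs, they were 1.58 to 1.82 and 0.99 (adjusted p = 0.0726 for miR-24-3p). Which scale is nearer to the amount of miRNA per exosome cannot be read from these files.

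Members moved with array brightness across the 12 arrays. The Pearson r of the log2 scaled signal with the log2 of the array's 75th percentile was 0.91 for miR-23a-3p, 0.88 for miR-23b-3p, 0.87 for miR-27a-3p, 0.90 for miR-27b-3p, and 0.47 for miR-24-3p, against a median of 0.15 over the 230 miRNAs detected on all arrays. Spearman's rho was 0.78 to 0.87 for the miR-23 and miR-27 members and 0.57 for miR-24-3p. Brightness and group run together in these arrays, and the part of brightness in the changes was not tested.

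Brightness of the miRNA mattered as well. When the 230 miRNAs were sorted by mean signal into 4 bins, the median change at 42 DPI ran from -1.41 in the dimmest bin to 0.38 in the brightest. miR-27b-3p lay in bin 2, where the median was -0.36 and the upper quartile 0.51, and miR-23a-3p and miR-27a-3p in bin 3, where these were 0.25 and 0.61. miR-23b-3p, at 0.81, and miR-24-3p, at 0.22, were both in the brightest bin, with quartiles of 0.08 and 0.70. Each of the 4 called members was thus above the upper quartile of its bin, and miR-24-3p was below the median of its bin.

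**Figure D5:**
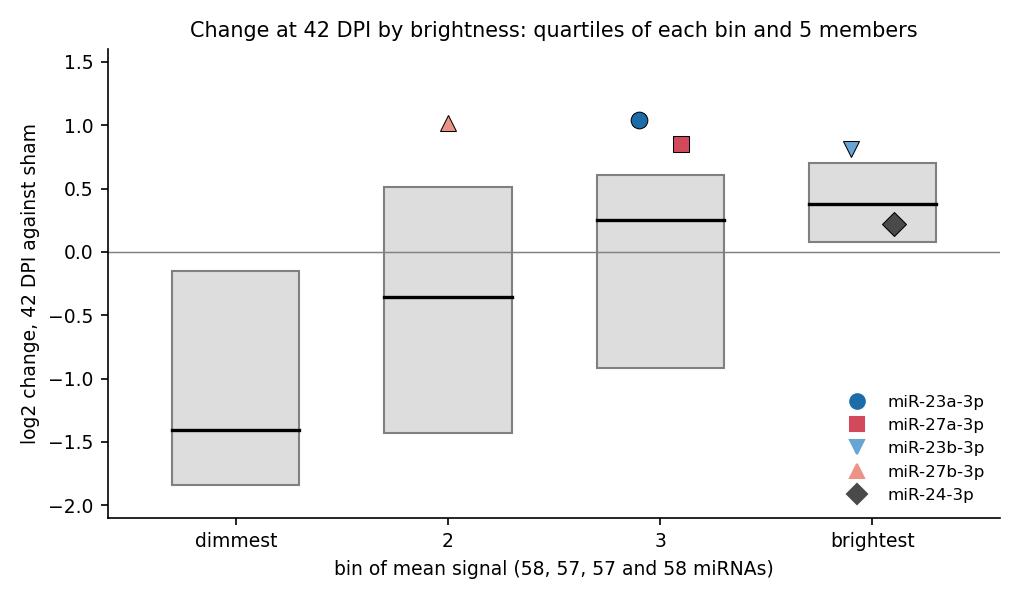
Log2 change at 42 DPI against sham (vertical axis) by bin of mean signal over the 230 miRNAs detected on all arrays. Boxes span the quartiles of the bin with a line at the median (-1.41, -0.36, 0.25, and 0.38 from dim to bright), and symbols give the 5 members, of which only miR-24-3p is inside its box.

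The probes of a member gave like values. Each tested member has 2 probes, and at 42 DPI they changed by 1.12 and 1.02 for miR-23a-3p, 0.80 and 0.82 for miR-23b-3p, 0.92 and 0.83 for miR-27a-3p, and 1.01 and 1.04 for miR-27b-3p. For miR-24-3p they changed by 0.29 and 0.17. All were detected on 12 of 12 arrays except the dimmer probe of miR-27b-3p, detected on 10.

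The other arms of the same hairpins were near background. miR-24-2-5p, the arm opposite miR-24-3p in Mir24-2, was detected on 1 of 12 arrays, replicate 1 of 42 DPI, and its signal was -1.4, -1.8, and -0.1 intensity units in sham and 43.4, 16.2, and 22.6 at 42 DPI. After scaling it was at the floor on every array, so no fold is given. In the deposited table it runs the other way, at 1.63, 2.11, and 1.14 in sham and -1.83, -3.32, and -0.33 at 42 DPI on a log2 scale, where the median of each column is -3.32.

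miR-24-1-5p, the corresponding arm of Mir24-1, carries the same seed as miR-24-2-5p and was the only other arm tested. It was detected on 0 of 3 arrays in sham and at 3 DPI, on 2 of 3 at 14 DPI, and on 3 of 3 at 42 DPI, with 5.6, 8.2, and 13.1 intensity units in sham, 12.2, 18.6, and 6.8 at 3 DPI, and 132.1, 55.9, and 90.3 at 42 DPI. At 3 DPI it was not well above background, and its signal at 42 DPI was higher by a bound of at least 1.389-fold, given with no p because it entered the 486 miRNAs only through 42 DPI, where it is high. Against sham the bound is under 1, so no fold is given. miR-23a-5p was detected on 1 array of 3 DPI and 1 of 14 DPI, and miR-23b-5p, miR-27a-5p, miR-27b-5p, and the miR-3074 miRNAs, which lie opposite the Mir24 hairpins, on none. Of the miRNAs that share bases 2 to 7 of the seed with a member, miR-24-1-5p was the only one outside the members that was tested.

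The members followed each other closely over the 12 arrays. Pearson r of the log2 scaled signal was 0.964 to 0.993 for the 6 pairs among the miR-23 and miR-27 members and 0.650 to 0.729 for their pairs with miR-24-3p. After each group's mean was taken away, r was 0.89 to 0.99 and 0.95 to 0.98. Outside the members, the most similar of the 230 miRNAs were miR-30c-5p for miR-23a-3p (r = 0.993) and miR-23b-3p (0.988), miR-30e-5p for miR-27a-3p (0.986), miR-136-5p for miR-27b-3p (0.973), and let-7c-5p for miR-24-3p (0.984). The next were miR-30e-5p (0.977 for miR-23a-3p and 0.987 for miR-23b-3p), miR-101c (0.981, miR-27a-3p), miR-376a-3p (0.973, miR-27b-3p), and miR-379-5p (0.979, miR-24-3p). These are descriptions over arrays that share their scaling and the brightness of their group.

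Summed signals of cell type markers also changed at 42 DPI, but in the neuron list and the microglia and myeloid list the miRNAs did not all move alike. Against sham, limma called the neuron miRNAs miR-128-3p (1.05) and miR-137-3p (0.59) higher. Of the same list, miR-9-5p, miR-9-3p, and miR-138-5p rose by 0.34 to 0.81 without a call, and miR-129-5p changed by -0.35. In the microglia and myeloid list, miR-21a-5p was called higher (0.86) and miR-223-3p changed by -0.13. From that list miR-146a-5p and miR-142a-3p, detected on no sham array, changed by 0.58 and 0.50. In the oligodendrocyte list, miR-219a-2-3p (1.23) and miR-219a-5p (1.20) were called higher, and miR-338-3p rose by 0.84 without a call. Also detected on no sham array were miR-143-3p of vascular smooth muscle, which changed by 1.14, and miR-486a-5p of erythrocytes, by -0.74. The summed log2 scaled signal of the neuron list (6 of 6 detected on all arrays of both groups) was 4.03 to 4.45 in sham and 4.87 to 5.06 at 42 DPI, and of the oligodendrocyte list (3 of 3) 0.85 to 1.33 and 2.04 to 2.15. The endothelium list had 1 of 2 miRNAs detected in sham (miR-126a-5p was not) and both at 42 DPI. Its sums overlapped, at 0.02 to 0.49 and 0.47 to 0.70, and miR-126a-3p changed by 0.33 (limma, adjusted p = 0.288). The microglia and myeloid list went from -0.57 to -0.10 in sham to 0.42 to 0.59 at 42 DPI, with 1 and 4 of 6 detected on all arrays and miR-142a-5p on none. The vascular smooth muscle list (2 miRNAs) went from -4.70 to -3.85 with none detected to -3.01 to -2.78, and the erythrocyte list (3 miRNAs) from -3.56 to -3.01 with none detected to -4.50 to -3.59. Their part in the changes of the members was not tested.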

How the data were processed

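Microglial exosomes were hybridized to 12 Agilent miRNA arrays in a single color, with 3 arrays in each of 4 groups. For every array the authors deposited the scanner output, which holds the intensity of each spot, corrected for background by Agilent Feature Extraction 10.7.1.1 and not brought to a common scale. A second deposited file, a table, has log2 values, whose scaling and centering are not given in the sources used here; each of its columns has a median of -3.32. The methods describe direct labeling of dephosphorylated RNA with cyanine-3-CTP, while the labels describe amplified cRNA; the labels name the injured hemisphere, and the methods bilateral cortex and hippocampus.

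From the intensities, control spots and outlier spots were left out, the mean over a probe's spots was taken, and these means were added up for each miRNA. The sums were scaled by the 75th percentile of the array, taken from the 230 miRNAs that all 12 arrays detected, then converted to log2 with a floor of -5.16. A miRNA was detected when more than 0.5 of the spots of 1 of its probes were well above background. Testing covered the 486 miRNAs that had been detected on every array of 1 group or more. The number of arrays limits the precision. The test was limma 3.58.1 (R 4.3.3), in 1 fit over all arrays, two-sided, with Benjamini-Hochberg adjustment. Within-array ratios of 8 pairs were compared with an exact permutation test, of which the 4 with miR-24-3p were added after seeing the data. Tables and plots were made with pandas 2.3.3, NumPy 2.4.6, and matplotlib 3.10.9 (Python 3.11.15). The fit was tested on simulated data.

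Named miRNAs were the members, the other arms of their loci, miRNAs that share a seed, and for each member the 2 most correlated others. The members and lists were chosen with earlier results of these data known. Same-numbered arrays of sham and 14 DPI deviated together from their group means (correlation across miRNAs 0.83, 0.43, and 0.74), which rests on these correlations alone; those of sham with 3 DPI (-0.45, 0.57, and -0.73) and 42 DPI (-0.41, -0.06, and 0.27) did not. A bound compares a group with the lowest signal well above background on the arrays of a group where a miRNA was not detected.

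Alternatives were another background correction (normexp), scaling, filter, probe rule, and signal column, the deposited table, the slide and the replicate number as blocks, only the groups compared, the methods' t-test, and each array left out in turn. Scaling to miR-24-3p, normexp with an offset of 0, and leaving out 14 DPI replicate 1 in comparisons without it were chosen after seeing the data.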

Additional observations from a re-analysis of the deposited data

Results flagged for a closer look

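For 4 miRNAs of these loci, 42 DPI stood apart from 3 DPI by limma's test of the difference between the time points. On the log2 scale the difference was 0.80 for miR-23a-3p, 0.66 for miR-23b-3p, 0.83 for miR-27a-3p, and 0.84 for miR-27b-3p. All arrays of 42 DPI were above those of 3 DPI for each, as they were for miR-24-3p and for 140 of 486 miRNAs (28.8%).

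The scanner software's own total signal per miRNA, which the reported values did not use and which served only as an alternative, was far above the sum of the probes for 2 arms near background. For miR-23a-5p it was 841.0 on replicate 1 of 42 DPI, where its probes summed to 2.8, and 109.3 and 59.6 on replicates 2 and 3 of 3 DPI and 91.2 on replicate 1 of 14 DPI, against 0.1 on the sham arrays. For miR-24-1-5p it was 86.9 and 169.1 on replicates 1 and 2 of 3 DPI, where its probes summed to 2.6 and 5.1, and sham replicate 3 had the same mismatch, with 67.6 against 2.8. On replicates 2 and 3 of 3 DPI, replicate 1 of 14 DPI, and replicate 1 of 42 DPI, the total of miR-23a-3p was 107.7, 56.6, 89.0, and 839.4. On replicates 1 and 2 of 3 DPI and replicate 3 of sham, the total of miR-23b-3p was 84.9, 165.2, and 65.0. The total was over 5 times the probe sum on 0 of 12 arrays for each of the 6 members.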

How the results depend on the processing

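Of 689 recomputed log2 changes, 592 kept their direction and side of the threshold, 44 lost the call, 28 gained it, and 25 changed sign. Of 139 recomputed counts of members called, 123 stayed within 1.5 times the reported count. At 42 DPI against sham, outside the fits that leave out an array, the 4 miR-23 and miR-27 members were called under 14 or 15 of 16 settings each, and their changes ran from 0.20 to 3.86. The cause of the changes below was not tested.

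With the slide as a block, 0 members were called at 42 DPI against sham and 1 for 42 against 3 DPI, and miR-24-3p changed by 0.01 at 3 DPI and 0.05 at 14 DPI. Within slide 1, miR-24-3p changed by 0.01 at 3 DPI, and within slide 2, 0 members were called for 42 against 3 DPI. Without scaling, 5 members were called at 14 DPI and 5 for 42 against 14 DPI. Over all miRNAs tested, 324 and 167 were called in these comparisons. Without scaling, miR-24-3p changed by 0.72 at 3 DPI and 1.65 at 14 DPI. Scaled to miR-24-3p (chosen after seeing the data), 4 members were called at 14 DPI and 4 for 14 against 3 DPI. Over all miRNAs tested, 92 and 74 were called in these comparisons. Under that scaling, miR-23a-3p, miR-23b-3p, and miR-27b-3p changed by -0.02, -0.04, and -0.05 from 14 to 42 DPI. With the 75th percentile over all miRNAs, miR-27a-3p changed by -0.05 at 3 DPI and miR-24-3p by 0.21 at 14 DPI. With quantile normalization miR-24-3p changed by 0.02 at 3 DPI, in the deposited table by 0.05 at 14 DPI, and with the software's total signal by 0.08 at 3 DPI and 0.15 at 14 DPI. Over all miRNAs, the count called ran across the settings from 0 (slide block) to 429 (normexp, offset 50) at 42 DPI against sham, where 168 are reported on both sides, and from 0 to 370 at 14 DPI (18 reported). It was 95 in the deposited table at 3 DPI (0 reported), from 0 to 134 for 14 against 3 DPI (3 reported), from 0 to 294 for 42 against 14 DPI (0 reported), and from 0 to 414 for 42 against 3 DPI (192 reported).

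With normexp and an offset of 50, the changes at 3 DPI were -0.11 for miR-27a-3p, -0.15 for miR-27b-3p, and 0.06 for miR-24-3p, and miR-24-3p changed by 0.15 at 14 DPI. At 3, 14, and 42 DPI against sham, the log2 ratio then shifted by -0.04, -0.02, and -0.05 for miR-23a over miR-23b, by 0.04, 0.12, and 0.26 for miR-27a over miR-27b, and by 0.25, 0.36, and 0.52 for miR-23b over miR-27b. The ratio of miR-27a over miR-24 shifted by -0.17 at 3 DPI and -0.05 at 42 DPI, and that of miR-27b over miR-24 by -0.21, -0.05, and -0.31 at 3, 14, and 42 DPI and by -0.10 from 3 to 42 DPI. With an offset of 0 (chosen after seeing the data), miR-27a-3p changed by -0.02 and miR-23b over miR-27b by 0.07 at 3 DPI.

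Pairing the arrays through a replicate block left 0 members called at 14 DPI and 4 at 42 DPI against sham, and 3 rather than 4 for 42 against 3 DPI, where miR-23b-3p was lost (adjusted p = 0.051). With the block and only the groups compared, 0 were called for 42 against 3 DPI.

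Leaving out 1 array at a time, the members called ran from 0 to 4 at 14 and at 42 DPI against sham, for 14 against 3 DPI, and for 42 against 3 DPI. The change of miR-24-3p ran from -0.20 to 0.03 at 3 DPI and from -0.25 to 0.20 at 14 DPI, that of miR-27a-3p at 3 DPI from -0.15 to 0.15, that of miR-27b-3p from 14 to 42 DPI from -0.02 to 0.45, and the ratio of miR-23b over miR-27b at 3 DPI from -0.11 to 0.05. Signal over background limits miR-24-2-5p, which has no measured change, and the dimmer probe of miR-27b-3p.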
